A study of Mus musculus with 9 samples.

Results

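CD4+ T cells that had become Foxp3 eGFP+ during 5 days of co-culture with mouse colorectal tumour organoids were compared with the eGFP- CD4+ T cells of day 0. The comparison is between 6 of the 9 libraries of the series, 3 per group. Of 14912 genes in the table, 14130 were above 0 in at least 1 of these 6 libraries, and the 10571 with a normalized count of at least 5 in at least 3 of them were tested. The other 4341 were too rare and carry no test. All cells came from the strain B6.Cg-Foxp3tm2(EGFP)Tch/J, labelled hemizygous for Foxp3<tm2Tch>, a reporter strain whose eGFP marks cells that transcribe Foxp3, the lineage factor of regulatory T (Treg) cells. The day 0 cells had received no treatment. The organoid-induced cells (mTO-iTreg) had been cultured with 20 U/ml IL-2 and with anti-CD3 and anti-CD28, each at 1 µg/ml. A further group, TGFb-iTreg, was also day 5 and eGFP+. It had been given TGFβ at 10 ng/ml and IL-2 at 300 U/ml with these antibodies but no organoids. This group is used below to show where genes stood in the other induced cells. Its libraries also enter the fit that estimates the spread behind every p-value. No source used here gives the age of the mice.

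The groups of the main comparison differ in time in culture, in stimulation, in the presence of organoids, in the eGFP gate and in the form of their library codes at once, and these cannot be told apart. The RNA Xist, given below with its limits, was also higher in every mTO-iTreg library than in any day 0 library. Between mTO-iTreg and TGFb-iTreg, the organoids, TGFβ, IL-2 dose and form of the library codes differ, and these cannot be told apart either. TGFb-iTreg has the code form of day 0. Whether the libraries of a group represent different animals or cultures is not in the labels, and p-values cover sample-to-sample spread alone, which may be technical. An eGFP+ gate selects cells in which the Foxp3 locus is active, so the reporter was part of the choice of cells. In bulk RNA, fewer cells of a type and less RNA per cell cannot be told apart.

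A resting CD4+ T cell is small, circulates through lymph nodes and keeps much of its gene expression low. Engagement of the T cell receptor together with CD28 and IL-2 starts growth, division and differentiation. Some of these cells switch on Foxp3 in tissues and tumours and are then called peripherally induced Treg cells. Colorectal tumours contain many such cells, and organoids, small self-organising cultures of tumour epithelium, offer a way to expose T cells to tumour cells without the rest of the tumour.

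Depth was 3432420, 2267922 and 5328169 counts in the day 0 libraries and 7551177, 7969853 and 7665711 in the mTO-iTreg libraries, so the rarest genes were read with less precision on day 0. Libraries of a group correlated at 0.905 to 0.926 on day 0 and at 0.914 to 0.926 in mTO-iTreg (Pearson's r across genes, which are not independent replicates), against 0.756 to 0.819 between the groups. Of 12 listed CD4+ T cell markers, 9 were present in the table, and all 9 were read in every group. Of these, 2 rose and 5 fell. They summed to 32678, 31499 and 30264 on day 0 and to 21847, 22883 and 25749 in mTO-iTreg. Markers of tumour epithelium summed to 105, 94.1 and 145 normalized counts on day 0 and to 59.3, 72.6 and 180 in mTO-iTreg, over the 12 of 22 listed markers present. Only 4 of them were tested, of which 2 rose and 1 fell, so the sums hide opposite changes. Fibroblast and endothelium markers summed to 739, 642 and 936 on day 0 and to 204, 88.7 and 112 in mTO-iTreg. Of the 4 present, 1 was tested, and it fell. B cell markers summed to 195, 132 and 926 on day 0 and to 299, 234 and 183 in mTO-iTreg, so day 0 replicate 3 stood apart from the other day 0 libraries. All 5 of these markers in the table were highest in replicate 3 among the day 0 libraries. The list includes Cd74, a class II gene given below, which made up most of the day 0 sums. Myeloid markers were at 568, 608 and 1078 on day 0 and at 498, 505 and 611 in mTO-iTreg. Xist, the RNA of the inactive X chromosome, was at 3.51, 0 and 212 on day 0 and at 314, 398 and 401 in mTO-iTreg, and its call was lost without day 0 replicate 1 (adjusted p = 0.087), without day 0 replicate 2 (adjusted p = 0.11), without mTO-iTreg replicate 1 (adjusted p = 0.058), without mTO-iTreg replicate 2 (adjusted p = 0.065) or without mTO-iTreg replicate 3 (adjusted p = 0.072). The part that other cells or the difference in Xist had in the gene results was not tested.

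Of the 10571 genes, 2119 were higher in mTO-iTreg (20.0%) and 1598 were lower (15.1%), by limma with Benjamini-Hochberg adjustment at 0.05 on log2(normalized count + 1). Every log2 change below is on that scale, which understates changes of rare genes and, where day 0 had few counts, depends on the 1 that is added. A value in brackets after a gene, or after "rose by" or "fell by", is such a log2 change, and every adjusted p is from that fit. Most genes were named because they were called without overlap between the groups, so statements of no overlap follow from that choice. Where a single gene's call is given as lost, only left-out libraries are listed, and each such gene also lost it in another setting. Among the calls, 852 genes rose and 310 fell by at least 4-fold, and 411 rose and 67 fell by at least 10-fold. Rises made up 57.0% of all calls with the deposited scaling. That split moved with the scaling, to 70.3% with equal totals and to 48.6% with quantile normalization, where falls outnumbered rises. The median log2 change over all tested genes was 0.09 as deposited, 0.31 with equal totals and -0.07 with quantile normalization. Family medians are therefore to be read beside 0.09, and family counts beside 20.0% and 15.1%. Some genes belong to more than 1 family, so the counts of families are not independent of each other.

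**Figure D1:**
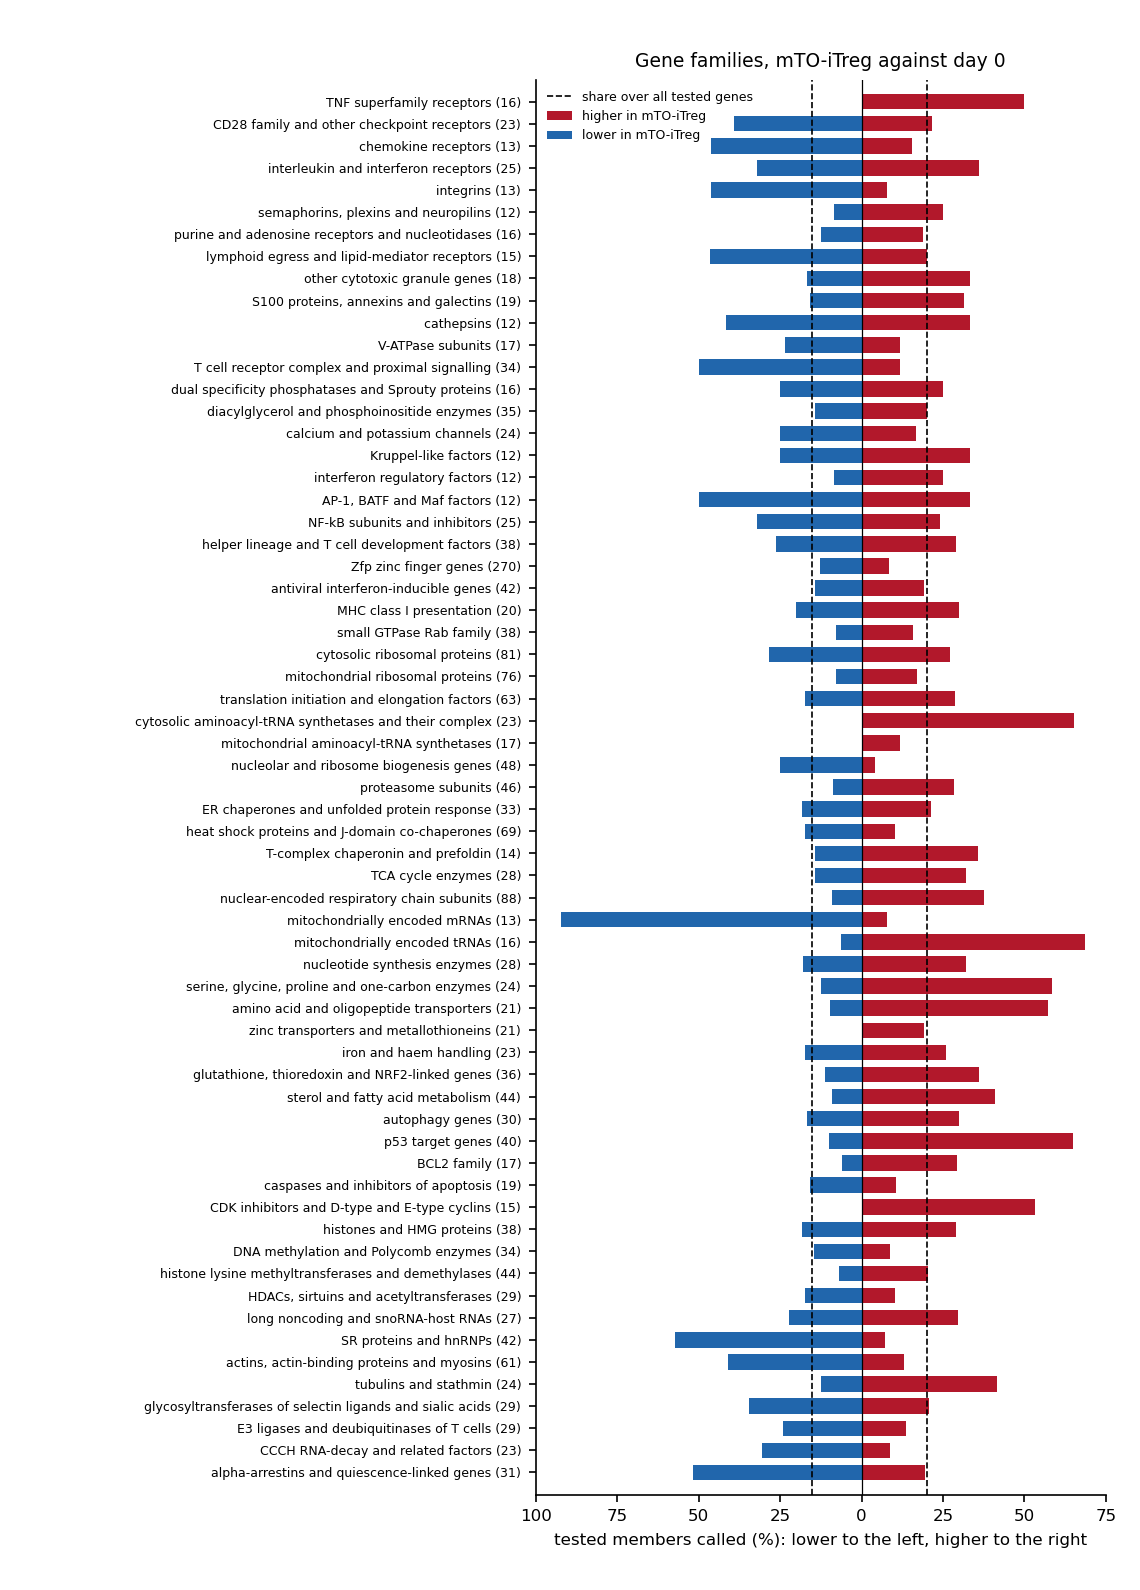
Share of the tested members of each gene family that were higher (red, to the right) or lower (blue, to the left) in mTO-iTreg than on day 0, for all but 1 of the families with at least 12 tested members (number in brackets). The dashed lines mark the shares over all tested genes, 20.0% higher and 15.1% lower. The longest red bars belong to mitochondrially encoded tRNAs, cytosolic aminoacyl-tRNA synthetases and p53 target genes, and the longest blue bars to mitochondrially encoded mRNAs and SR proteins and hnRNPs.

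Target genes of p53 were mostly higher. p53, encoded by Trp53, is a transcription factor that is held low by the ubiquitin ligase Mdm2 and acts after DNA damage and other stress by switching on genes for cell cycle arrest, repair and death. Of its target genes, 26 of 40 tested members rose and 4 fell (65.0% and 10.0%), with a median log2 change of 1.19. Cdkn1a, which encodes the CDK inhibitor p21 (GRCm38 chromosome 17, 29090976 to 29100727), stood at 0, 5.38 and 11.6 normalized counts on day 0 and at 3814, 2559 and 2421 in mTO-iTreg (log2 change 9.38 ± 0.82 SE, adjusted p = 2.5e-06). The TGFb-iTreg libraries were at 9.84, 9.49 and 60.3, so that all 3 mTO-iTreg libraries lay far above every other library (log2 change 7.23 against TGFb-iTreg, adjusted p = 3.4e-05). Trp53 itself went the other way, from 1186, 1366 and 1519 to 621, 926 and 734 (log2 change -0.85 ± 0.16 SE, adjusted p = 0.00095), again without overlap. Matches to the p53 decamer, a 10-base consensus, were looked for on both strands in the 250 bases before the start of each gene, with promoter sequences of RefSeq on GRCm38.p6. They were present in 12 of the 32 p53 target genes with a promoter sequence (37.5%), in 8.20% of 27025 genes with a sequence and in 6.68% of the 7983 of these that were tested. Among these targets a match lay before 7 of 22 that rose, 1 of 4 that fell and 4 of 6 that were not called. Sequences are shown for 6 of those that rose, to let the matches be compared. Capitals mark the decamer, each line reads 5′ to 3′ along the gene, and the distance is that of the match to the start.
Cdkn1a, chr17:29090903-29090962, + strand, 51 bases before the start: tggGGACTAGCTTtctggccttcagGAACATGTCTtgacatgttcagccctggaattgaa
Ccng1, chr11:40755437-40755496, - strand, 185 bases before the start: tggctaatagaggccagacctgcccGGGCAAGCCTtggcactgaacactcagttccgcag
Bax, chr7:45467065-45467124, - strand, 201 bases before the start: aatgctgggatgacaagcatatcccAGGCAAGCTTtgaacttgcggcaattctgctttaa
Mdm2, chr10:117710910-117710969, - strand, 186 bases before the start: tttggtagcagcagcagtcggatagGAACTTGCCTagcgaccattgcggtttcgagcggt
Polk, chr13:96519384-96519437, - strand, 231 bases before the start: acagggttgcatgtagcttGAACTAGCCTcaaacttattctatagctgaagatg
Pml, chr9:58249896-58249955, - strand, 144 bases before the start: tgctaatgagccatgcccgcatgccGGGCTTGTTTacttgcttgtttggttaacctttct

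Cdkn1a carries 2 matches in the stretch shown and the other genes 1 each. A match is a description of the sequence and says nothing of binding in these cells. Of the genes shown, Polk, a polymerase that copies past damaged bases, went from 71.9, 24.2 and 52.7 to 358, 158 and 262 (log2 change 2.42 ± 0.42 SE, adjusted p = 0.00067). Pml, which builds nuclear bodies, went from 379, 352 and 354 to 689, 962 and 822 (log2 change 1.17 ± 0.16 SE, adjusted p = 8.6e-05). Mdm2 changed less, from 163, 215 and 187 to 383, 302 and 333 (log2 change 0.85 ± 0.19 SE, adjusted p = 0.004). Ccng1, a cyclin G gene, stood at 825, 1048 and 867 on day 0 and at 2035, 1146 and 2010.1 in mTO-iTreg (log2 change 0.88 ± 0.21 SE, adjusted p = 0.0059). In all 4 the groups did not overlap, and TGFb-iTreg stood below every mTO-iTreg library. Bax, a pore-forming death protein, was at 57.9, 45.7 and 25.3 on day 0 and at 108, 70.1 and 126 in mTO-iTreg (log2 change 1.26 ± 0.38 SE, adjusted p = 0.02). Its call was lost without day 0 replicate 3 (adjusted p = 0.075), without mTO-iTreg replicate 1 (adjusted p = 0.064) or without mTO-iTreg replicate 3 (adjusted p = 0.083).

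The other p53 targets that rose cover arrest, growth control and death. Phlda3, an inhibitor of AKT signalling, went from 0, 0 and 6.33 to 342, 114 and 203, on 6 day 0 counts (log2 change 6.69 ± 0.80 SE, adjusted p = 3.2e-05). Sesn2, a sensor that lowers mTORC1 activity, was at 0, 0 and 1.05 on day 0 and at 30.7, 62.7 and 15.9 in mTO-iTreg. Gadd45g, a growth arrest gene, stood at 5.26, 2.69 and 24.3 on day 0 and at 357, 326 and 198 in mTO-iTreg (log2 change 5.09 ± 0.60 SE, adjusted p = 3.2e-05). Each of these 3 had its 3 mTO-iTreg libraries above all day 0 libraries. Gtse1, a cell cycle gene that restrains p53, had a log2 change of 5.12. The exceptions that fell were Btg2 (-1.48), an antiproliferative gene, Sertad1 (-1.09), Trp53 and Ccng2. The call of Ccng2 was lost without day 0 replicate 3 (adjusted p = 0.083) or without mTO-iTreg replicate 2 (adjusted p = 0.062).

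Brakes and drivers of the cell cycle that surround p53 were also counted as a group, which shares Cdkn1a with the p53 targets. Of CDK inhibitors and D-type and E-type cyclins, 8 of 15 tested members rose and 0 fell. Cdk6, the kinase partner of D-type cyclins, went from 0, 0 and 13.7 to 54.6, 76.3 and 43.8 (log2 change 4.56 ± 1.20 SE, adjusted p = 0.0097), and Cdkn1c, which encodes the inhibitor p57, from 7.02, 0 and 0 to 14.3, 39.1 and 43.8 on 4 day 0 counts. Rb1, the retinoblastoma protein gene, was at 133, 45.7 and 129 on day 0 and at 351, 269.8 and 313 in mTO-iTreg (log2 change 1.73 ± 0.35 SE, adjusted p = 0.0017). Of the BCL2 family, 5 of 17 tested members rose and 1 fell, and the survival genes Bcl2 and Bcl2l1 were among those that rose. Bcl2 stood at 1318, 1188 and 2080.4 on day 0 and at 3563, 4558 and 3828 in mTO-iTreg (log2 change 1.42 ± 0.18 SE, adjusted p = 5.8e-05). Bcl2l1, which encodes BCL-XL, stood at 84.2, 96.8 and 100.2 on day 0 and at 546, 373 and 329 in mTO-iTreg (log2 change 2.11 ± 0.26 SE, adjusted p = 3.9e-05). Both survival genes rose beside the death gene Bnip3 (2.16), and the groups did not overlap. Of caspases and inhibitors of apoptosis, 2 of 19 tested members rose and 3 fell. Apaf1, the scaffold of the apoptosome, rose by 1.35, and Casp2 fell by 1.403 on the log2 scale. The 0 falls of CDK inhibitors and D-type and E-type cyclins became 2 with quantile normalization. The 5 rises of BCL2 family became 3 without mTO-iTreg replicate 1 or without mTO-iTreg replicate 3. The 3 falls of caspases and inhibitors of apoptosis became 5 with quantile normalization and 1 with no variance trend.

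**Figure D2:**
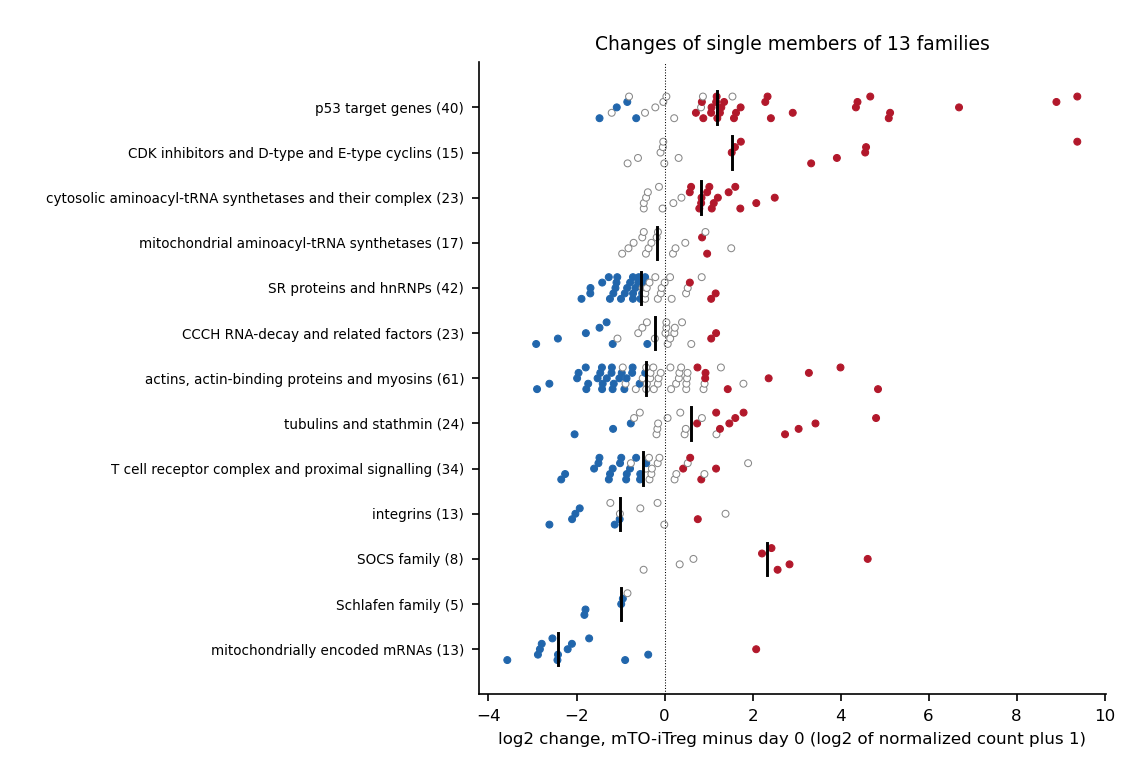
Log2 change, mTO-iTreg minus day 0, of each tested member of 13 families (number tested in brackets). Each circle is a gene, red where it rose, blue where it fell and open where it was not called, and the black bar is the family median. The p53 target genes reach from -1.48 (Btg2) to 9.38 (Cdkn1a), whereas 12 of 13 mitochondrially encoded mRNAs lie on the lower side.

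**Figure D3:**
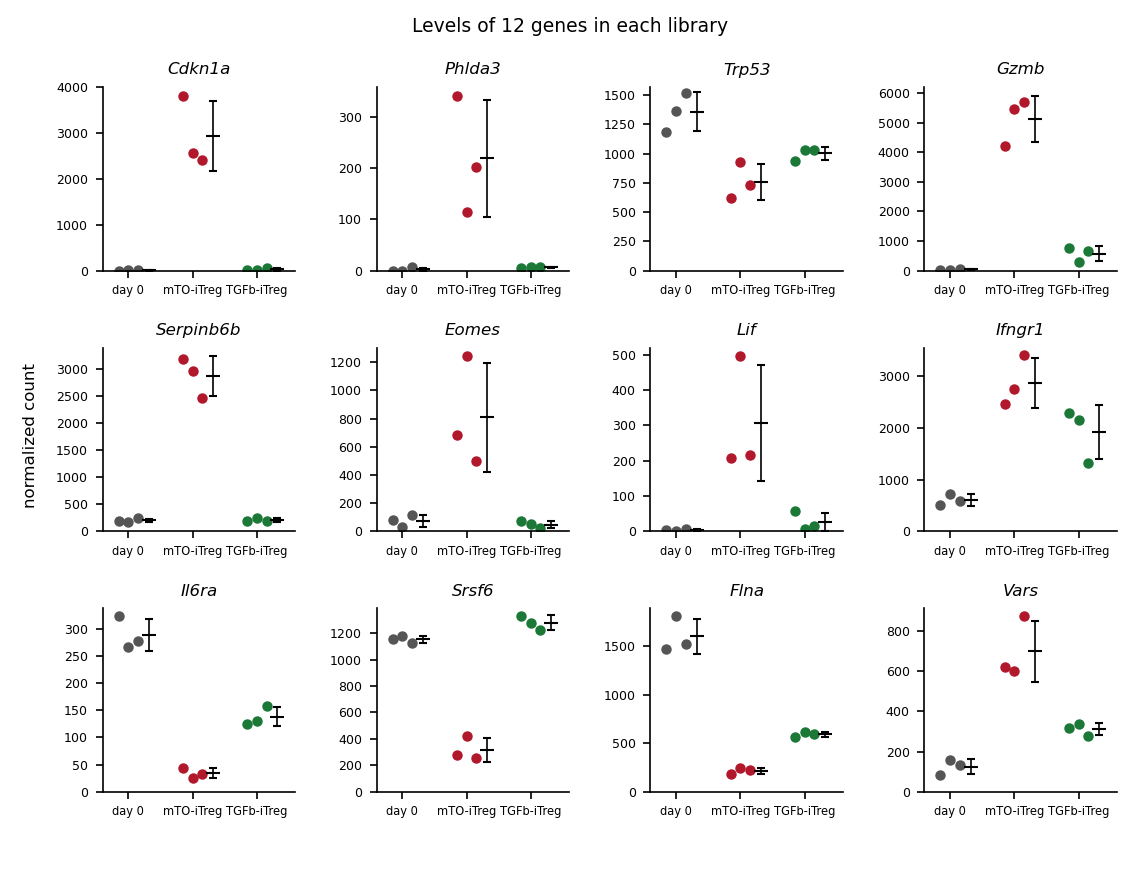
Normalized count of 12 genes in each of the 9 libraries (points), with mean and SD of each group (n = 3, horizontal and vertical bars), on linear axes from 0. Cdkn1a, Phlda3, Serpinb6b, Eomes and Lif were high in the 3 mTO-iTreg libraries and low in the other 6. Gzmb was also highest in mTO-iTreg, with TGFb-iTreg between the other groups. Srsf6 was low in mTO-iTreg and high in both other groups.

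Among surface receptors, several of the TNF superfamily rose and none fell, while more chemokine receptors and integrins fell than rose. TNF receptor family members deliver costimulatory or death signals. Of them 8 of 16 tested members rose and 0 fell (50.0% and 0%), median 0.77. Tnfrsf9, which encodes the costimulatory receptor 4-1BB, went from 43.9, 51.1 and 38.0 to 1331, 1494 and 1188 (log2 change 4.89 ± 0.28 SE, adjusted p = 6e-08). Tnfrsf4, which encodes OX40, went from 35.1, 37.6 and 59.1 to 771, 1024 and 838 (log2 change 4.32 ± 0.23 SE, adjusted p = 2.8e-08). Both were higher in every mTO-iTreg library than in any day 0 or TGFb-iTreg library, the latter at 155, 229 and 95.8 for Tnfrsf9 and 339, 317 and 284 for Tnfrsf4. Tnfrsf18 (3.09), Tnfrsf1b (2.41), the TNF receptor 2 gene, and Fas (1.73), the death receptor, rose too. Of TNF superfamily ligands 1 rose and 2 fell of 9. Tnfsf8, the CD30 ligand gene, rose by 2.72, and Cd40lg, the CD40 ligand through which helper cells license B cells, fell from 86.0, 88.7 and 103 to 4.77, 11.2 and 22.6 (log2 change -2.98 ± 0.57 SE, adjusted p = 0.0013). Ltb, the lymphotoxin-β gene, fell by 1.44.

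Of the CD28 family and other checkpoint receptors, 5 rose and 9 fell of 23. Ctla4, the inhibitory rival of CD28, rose by 3.71, Cd200 by 2.14, Icos by 1.27 and Slamf1 by 1.13. The falls were led by Slamf6, a homotypic adhesion receptor, which was at 154, 151 and 274 on day 0 and at 22.5, 40.9 and 14.6 in mTO-iTreg (log2 change -2.91 ± 0.39 SE, adjusted p = 8.9e-05). Ly9, of the same SLAM family, went from 253, 209.7 and 149.8 to 40.2, 22.95 and 23.9 (log2 change -2.79 ± 0.35 SE, adjusted p = 5.3e-05). Members of the SLAM family thus went both ways, with Slamf1 higher and Slamf6 and Ly9 lower. Cd96 (-1.500) and Btla (-1.23), an inhibitory receptor, fell with them.

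Chemokine receptors guide migration between blood, lymph nodes and tissue. Of them 2 rose and 6 fell of 13, median -1.80. Cxcr3, a receptor of inflamed tissue, went from 254, 102 and 166 to 7.503, 23.6 and 65.1 (log2 change -2.77 ± 0.62 SE, adjusted p = 0.0035), and Cxcr4 from 177, 395 and 272 to 115, 78.2 and 49.2 (log2 change -1.80 ± 0.32 SE, adjusted p = 0.00066). Ccr7, the receptor for lymph node homing, went the other way, from 1037, 1075 and 1088 to 3135, 2761 and 1701 (log2 change 1.20 ± 0.19 SE, adjusted p = 0.00027), as did Ccr9 (3.02), a receptor of gut homing. Of the 4 tested chemokines none rose and 2 fell, and the T cell chemokine Ccl5 went from 518, 118 and 334 to 23.9, 34.1 and 30.6 (log2 change -3.19 ± 0.55 SE, adjusted p = 0.00058). Integrins, which anchor cells to matrix and to other cells, counted 13 tested, 1 higher, 6 lower, median -1.02. Itgb7, the partner of the gut-homing α4 chain, went from 1298, 1175 and 823 to 249, 290.3 and 255 (log2 change -2.03 ± 0.17 SE, adjusted p = 2e-06). Itgb1 (-1.13), Itgal (-1.02), which encodes the LFA-1 chain CD11a, and Itgb3 (-1.93) also fell, and in each of the 4 the groups did not overlap. Of lymphoid egress and lipid-mediator receptors 3 rose and 7 fell of 15. S1pr1, the receptor by which T cells leave lymph nodes, fell from 4089.6, 3355 and 3108 to 635, 925 and 831 (log2 change -2.15 ± 0.15 SE, adjusted p = 5.6e-07), and S1pr4 (-1.73) and Lpar6 (-2.94) fell as well. Gpr83, an orphan receptor known from Treg cells, rose by 2.63. The 7 falls of lymphoid egress and lipid-mediator receptors became 4 without day 0 replicate 2 or with equal totals.

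Cytokine receptors went both ways. Of interleukin and interferon receptors 9 rose and 8 fell of 25. Ifngr1, the ligand-binding chain for interferon-γ, was at 509, 726 and 574 on day 0 and 2462, 2749 and 3411 in mTO-iTreg (log2 change 2.25 ± 0.20 SE, adjusted p = 3.6e-06). Ifnar2, of the type I interferon receptor, went from 253, 266 and 416 to 1410.5, 1268 and 1290.0 (log2 change 2.12 ± 0.18 SE, adjusted p = 2.5e-06), and Ifnar1, its other chain, fell by 0.59. The call of Ifnar1 was lost without day 0 replicate 1 (adjusted p = 0.18), without day 0 replicate 2 (adjusted p = 0.09), without mTO-iTreg replicate 1 (adjusted p = 0.15), without mTO-iTreg replicate 3 (adjusted p = 0.1), without TGFb-iTreg replicate 1 (adjusted p = 0.056) or without TGFb-iTreg replicate 3 (adjusted p = 0.06). The TGFb-iTreg libraries stood between the groups for Ifngr1, at 2283, 2153 and 1318. Falls were found for Il6ra (from 323, 266 and 276 to 43.7, 26.1 and 33.2, log2 change -3.06 ± 0.27 SE, adjusted p = 2.5e-06), for Il27ra (-2.94) and for Il17ra (-1.24), receptors for IL-6, IL-27 and IL-17. Il1rap, the accessory chain for IL-1 and IL-33, fell by 1.87. Of the SOCS family, negative regulators of cytokine signalling, 5 rose and 0 fell of 8 tested, median 2.32. Cish, which damps IL-2 and T cell receptor signals, was at 56.1, 32.3 and 114 on day 0 and at 1614, 1653 and 1203 in mTO-iTreg (log2 change 4.62 ± 0.34 SE, adjusted p = 6.8e-07), and Socs1, which blocks JAK kinases, at 497, 669 and 487 and 2916, 2821 and 1978 (log2 change 2.21 ± 0.18 SE, adjusted p = 1.7e-06). Socs2 (2.84), Socs3 (2.43) and Socs5 (2.57) rose too, and in all 5 the groups did not overlap.

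Of secreted cytokines 5 rose and 2 fell of 10. Lif, a cytokine of the IL-6 family, was at 1.75, 0 and 6.33 on day 0 and at 208, 496 and 217 in mTO-iTreg, on 7 day 0 counts (log2 change 6.70 ± 0.82 SE, adjusted p = 4e-05), and at 56.6, 6.78 and 13.8 in TGFb-iTreg. Ebi3, a subunit of IL-27 and of the Treg cytokine IL-35, went from 0, 0 and 2.11 to 85.3, 109.8 and 131 on 2 day 0 counts. Mif, the macrophage migration inhibitory factor, rose by 1.59, and Csf1 fell by 3.02. Tgfb1 was at 24.6, 10.8 and 11.6 on day 0 and at 9.55, 24.2 and 11.3 in mTO-iTreg and was not called (adjusted p = 0.94). Il10 was too rare to be tested. Of semaphorins, plexins and neuropilins 3 rose and 1 fell of 12, with Sema7a (3.42) and Plxna1 (2.21) among the rises. Purine and adenosine receptors and nucleotidases counted 16 tested, 3 higher, 2 lower, of the Ly6 family 0 rose and 2 fell of 7, and of 2 killer cell lectin-like receptors 1 fell. Ly6c1 fell by 2.54 and Entpd5, a nucleotidase of the secretory pathway, by 1.82. The 5 rises of secreted cytokines became 3 without day 0 replicate 2 or without mTO-iTreg replicate 2. The 3 rises of semaphorins, plexins and neuropilins became 1 with limma-voom on recovered counts. The 1 fall of semaphorins, plexins and neuropilins became 3 with quantile normalization or with limma-voom on recovered counts. The 3 rises of purine and adenosine receptors and nucleotidases became 1 without mTO-iTreg replicate 2, with no filter or with quantile normalization.

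Among T cell receptor signalling genes, more fell than rose. Of the T cell receptor complex and proximal signalling 4 of 34 tested members rose and 17 fell (11.8% and 50.0%), median -0.49. Fyn, a Src-family kinase, went from 1819, 1839 and 2069 to 558, 845 and 676 (log2 change -1.48 ± 0.15 SE, adjusted p = 7.7e-06). Themis, an adaptor of receptor signalling, went from 261, 315 and 175 to 32.7, 67.6 and 56.5 (log2 change -2.26 ± 0.35 SE, adjusted p = 0.00024). Cd6 (-1.60), a co-receptor that tunes activation, Pag1 (-1.502) and Skap1 (-1.27), an adaptor for integrin activation, fell with them. For each of these 5 genes the 3 mTO-iTreg libraries lay below all day 0 libraries. The 4 rises were those of Zap70, the kinase that binds the receptor chains, which went from 275, 290.3 and 193 to 434, 420.0 and 482 (log2 change 0.83 ± 0.20 SE, adjusted p = 0.0049), of the adhesion receptor gene Cd2 (1.17), of the adaptor gene Fyb (0.58) and of Cd4 (0.42), the co-receptor by which the cells were chosen. The call of Cd4 was lost without day 0 replicate 2 (adjusted p = 0.08), without day 0 replicate 3 (adjusted p = 0.055), without mTO-iTreg replicate 2 (adjusted p = 0.063) or without mTO-iTreg replicate 3 (adjusted p = 0.07). The 4 rises of T cell receptor complex and proximal signalling became 2 with no variance trend.

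Of calcium and potassium channels 4 rose and 6 fell of 24. Atp2a3, the pump that refills the endoplasmic reticulum with calcium, went from 1032, 672 and 390.3 to 150.1, 81.9 and 165 (log2 change -2.34 ± 0.32 SE, adjusted p = 0.0001). Orai1, the pore of store-operated calcium entry, fell from 1046, 1150.5 and 949 to 544, 489 and 438 (log2 change -1.10 ± 0.15 SE, adjusted p = 0.0001). Both are parts of the calcium cycle that follows receptor engagement, and in both the groups did not overlap. The plasma membrane pump Atp2b4 rose by 2.12 while Atp2b1 fell by 1.11. Of dual specificity phosphatases and Sprouty proteins 4 rose and 4 fell of 16. Dusp4, which acts on nuclear ERK, was at 0, 2.69 and 8.44 on day 0 and 216, 169 and 117 in mTO-iTreg (log2 change 5.64 ± 0.75 SE, adjusted p = 7.6e-05), and Dusp1, an immediate-early phosphatase, went from 665, 569.9 and 657 to 148, 119.7 and 78.4 (log2 change -2.48 ± 0.30 SE, adjusted p = 4.1e-05). Dusp22 (2.00) rose, and Dusp6 (-1.55) and Dusp10 (-1.15) fell. RGS proteins, which shorten signals of G protein-coupled receptors, counted 9 tested, 3 higher, 1 lower, with Rgs1 at 1.67, Rgs10 at 0.78 and Rgs14 at -1.94. Diacylglycerol and phosphoinositide enzymes counted 35 tested, 7 higher, 5 lower, close to the shares over all genes. Among them Dgkz rose by 1.06 and Dgka fell by 0.90, although both remove diacylglycerol. The 5 falls of diacylglycerol and phosphoinositide enzymes became 3 with equal totals and 8 with quantile normalization.

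The Fos and Jun genes were lower. AP-1, the dimer of Fos and Jun proteins, switches on within minutes of stimulation. Of AP-1, BATF and Maf factors 4 rose and 6 fell of 12. Jun went from 6830.0, 5661 and 9998 to 1444, 1707 and 1042 (log2 change -2.41 ± 0.22 SE, adjusted p = 4e-06) and Junb from 8037, 9037 and 6609 to 1443, 1523 and 1211 (log2 change -2.497 ± 0.20 SE, adjusted p = 1.5e-06). Jund (-1.46), Fos (-4.27), Fosb (-4.14) and Maf (-1.74) fell with them. The rises were Jdp2, a repressor of AP-1, from 1.75, 0 and 4.22 to 131, 109 and 168 on 5 day 0 counts (log2 change 5.79 ± 0.84 SE, adjusted p = 0.00016), Fosl2 (2.12), Mafg (1.99) and Maff. The call of Maff was lost without day 0 replicate 1 (adjusted p = 0.078), without mTO-iTreg replicate 1 (adjusted p = 0.1) or without mTO-iTreg replicate 3 (adjusted p = 0.091). The tested AP-1 genes thus went both ways, with the broad immediate-early members lower and Jdp2 and Fosl2 higher. Kruppel-like factors also split: 4 rose and 3 fell of 12. Klf2, which maintains quiescence and S1pr1 expression, fell from 4126, 3008 and 3167 to 889, 934 and 629 (log2 change -2.08 ± 0.16 SE, adjusted p = 1.1e-06), and Klf6 (-1.46) and Klf4 (-2.39) fell. Klf10, a TGFβ-inducible factor, went from 68.4, 53.8 and 64.4 to 551, 545 and 596 (log2 change 3.17 ± 0.26 SE, adjusted p = 1.5e-06), and Klf9 (4.74), Klf11 (3.31) and Klf16 (1.60) rose. Of Egr and Nr4a factors 4 rose and 1 fell of 11. Nr4a2, an orphan nuclear receptor, went from 0, 0 and 5.27 to 51.2, 60.8 and 29.9 on 5 day 0 counts. The 4 rises of Egr and Nr4a factors became 2 without day 0 replicate 1.

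Of helper lineage and T cell development factors 11 rose and 10 fell of 38. Eomes, a T-box factor of cytotoxic and memory cells, was at 77.2, 26.9 and 113 on day 0, at 685, 1243 and 495 in mTO-iTreg (log2 change 3.58 ± 0.53 SE, adjusted p = 0.00019) and at 71.3, 48.2 and 20.3 in TGFb-iTreg. It also stands on the list of NK and innate-like markers, where the other 3 markers in the table were at 0 in all mTO-iTreg libraries. Gfi1, a repressor of T cell fate genes, went from 89.5, 8.06 and 27.4 to 572, 640.2 and 707 (log2 change 4.48 ± 0.59 SE, adjusted p = 7.6e-05). Bhlhe40 (4.11), Runx2 (3.77) and Ikzf4 (3.20), which encodes the Treg factor Eos, also rose. The falls included Lef1 (from 5176, 5166 and 4789 to 1793, 2460.3 and 1665, log2 change -1.37 ± 0.14 SE, adjusted p = 1e-05), Tcf7 (-1.57), both factors of naive cells, Id3 (-1.47), Cbfb (-1.15) and Ikzf1 (-0.79). Of interferon regulatory factors 3 rose and 1 fell of 12. Irf8 went from 98.2, 75.3 and 127 to 1289.8, 2395 and 1309 (log2 change 4.01 ± 0.25 SE, adjusted p = 1.9e-07), and all 3 mTO-iTreg libraries lay above all day 0 libraries. NF-kB subunits and inhibitors counted 25 tested, 6 higher, 8 lower. The rises included Nfkb2 (1.70), Bcl3 (2.55), Traf1 (1.53) and Tnfaip3 (1.48). The kinase gene Ikbkb (-0.94), the deubiquitinase gene Cyld (-0.94) and Nfkbid (-1.82), an atypical inhibitor, fell. Zfp zinc finger genes counted 270 tested, 23 higher, 34 lower, below the shares over all genes in both directions (8.52% and 12.6%). The 10 falls of helper lineage and T cell development factors became 6 with equal totals. The 3 rises of interferon regulatory factors became 1 without day 0 replicate 1, without mTO-iTreg replicate 2, with TMM scaling or with no variance trend and 5 with equal totals. The 8 falls of NF-kB subunits and inhibitors became 4 without day 0 replicate 2 and 5 with equal totals. The 23 rises of Zfp zinc finger genes became 13 without mTO-iTreg replicate 1. The 34 falls of Zfp zinc finger genes became 22 without day 0 replicate 2 and 54 with quantile normalization.

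Several genes of cytotoxic granules and of their protection were higher. Granules carry perforin, granzymes and proteoglycan into target cells, and serpins of clade B shield the cell from its own granzymes. Of other cytotoxic granule genes 6 rose and 3 fell of 18. Serpinb6b (GRCm38 chromosome 13, 32965209 to 32979067) was at 191, 177 and 235 on day 0, at 3192, 2957 and 2462 in mTO-iTreg (log2 change 3.83 ± 0.18 SE, adjusted p = 1.1e-08) and at 179.6, 239 and 179.8 in TGFb-iTreg. Nkg7, a granule membrane protein, went from 93.0, 10.8 and 96.0 to 740.0, 599 and 672 (log2 change 3.82 ± 0.61 SE, adjusted p = 0.00032). Serpinb9, the granzyme B inhibitor, went from 89.5, 34.9 and 135 to 233, 315 and 177 (log2 change 1.63 ± 0.40 SE, adjusted p = 0.0061). In each of the 3 the groups did not overlap. Stxbp2 (1.45), which serves granule fusion, and Ctsw (1.47) rose as well, while Ctsc (-1.35), the protease that activates granzymes, fell. Of 3 tested granzymes 1, Gzmb (7.22), rose and none fell. Of serpins, a family that overlaps with the granule genes, 3 rose and 1 fell of 6. Serpine2, an inhibitor of thrombin and urokinase, went from 24.6, 5.38 and 4.22 to 677, 259.9 and 673 (log2 change 5.70 ± 0.65 SE, adjusted p = 2.2e-05). Of cathepsins 4 rose and 5 fell of 12, with Ctsl (2.04) higher and Ctss (-0.96), Ctso (-1.96) and Lgmn (-2.28) lower. The 6 rises of other cytotoxic granule genes became 10 with equal totals. The 3 falls of other cytotoxic granule genes became 1 without day 0 replicate 1, without mTO-iTreg replicate 2, with equal totals or in a fit of 2 groups. The 4 rises of cathepsins became 2 without day 0 replicate 1 or with no variance trend. The 5 falls of cathepsins became 8 with quantile normalization.

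S100 proteins, annexins and galectins, calcium- or sugar-binding proteins of membranes and cytosol, counted 19 tested, 6 higher, 3 lower. S100a4 (-4.84) and S100a6 (from 196, 148 and 270.1 to 41.6, 28.5 and 45.8, log2 change -2.36 ± 0.41 SE, adjusted p = 0.00066) fell, and S100a1 (from 15.8, 0 and 2.11 to 53.9, 86.2 and 245, log2 change 4.82 ± 1.07 SE, adjusted p = 0.0034) and S100a11 (1.27) rose. Close relatives thus went opposite ways, without overlap in any of the 4. Anxa2 (1.85), Anxa4 (3.41) and Anxa7 (1.63) rose and Anxa5 (-0.95) fell. Lipocalins and fatty acid-binding proteins carry small hydrophobic molecules, and of 4 tested 3 rose. Lcn6 was at 0 in the 3 day 0 libraries and at 868, 642 and 353 in mTO-iTreg, at least 391-fold higher against the floor of 3 counts over the group. Fabp5, a carrier of fatty acids, went from 19.3, 8.06 and 39.03 to 74.3, 120.3 and 103 (log2 change 2.34 ± 0.50 SE, adjusted p = 0.0025). Lcn6 lies beside Lcn10, and as the handling of strand and overlap is not given in the sources used here, reads of such neighbours, of overlapping and of antisense genes cannot be told apart. Of V-ATPase subunits, which acidify lysosomes, 2 rose and 4 fell of 17, with Atp6ap1 (-2.07), Atp6v1b2 (-1.37) and Atp6ap2 (-1.25) among the falls. The 3 falls of S100 proteins, annexins and galectins became 5 with TMM scaling or with quantile normalization. The 2 rises of V-ATPase subunits became 0 without day 0 replicate 2, without mTO-iTreg replicate 3 or with no variance trend.

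Antigen presentation genes of class II changed in a divided way. T cells of mice make little class II themselves, whereas B cells and dendritic cells make much. Of MHC class II presentation genes 5 rose and 2 fell of 9. H2-DMa, a chaperone chain that edits the peptide, was at 77.2, 86.0 and 88.6 on day 0 and at 702, 775 and 683 in mTO-iTreg (log2 change 3.09 ± 0.23 SE, adjusted p = 7.3e-07). H2-Oa, a chain of the protein that restrains it, was at 10.5, 5.38 and 32.7 on day 0 and at 343, 345 and 411 in mTO-iTreg (log2 change 4.76 ± 0.55 SE, adjusted p = 2.4e-05). Both rises were as clear without day 0 replicate 3, the day 0 library highest in B cell markers (log2 change 3.13, adjusted p = 4.4e-06 for H2-DMa, and log2 change 5.42, adjusted p = 5.8e-06 for H2-Oa). H2-DMb1 was at 3.51, 2.69 and 52.7 on day 0 and at 93.4, 97.4 and 74.4 in mTO-iTreg (log2 change 3.20 ± 0.87 SE, adjusted p = 0.011), and without that library at log2 change 4.44, adjusted p = 0.00027. Among the presenting chains, H2-Eb1 was at 344, 175 and 1985 on day 0 and at 2331, 1410.0 and 1817 in mTO-iTreg (log2 change 1.88 ± 0.66 SE, adjusted p = 0.041), where the groups overlapped and the call was lost without day 0 replicate 1 (adjusted p = 0.13), without day 0 replicate 2 (adjusted p = 0.18), without mTO-iTreg replicate 1 (adjusted p = 0.12), without mTO-iTreg replicate 2 (adjusted p = 0.062) or without mTO-iTreg replicate 3 (adjusted p = 0.097), and without day 0 replicate 3 at log2 change 2.88, adjusted p = 0.00035. H2-Aa went from 453, 199 and 1984 to 189.6, 56.5 and 32.5 (log2 change -2.98 ± 0.76 SE, adjusted p = 0.0079) and, without that library, had log2 change -2.07, adjusted p = 0.035. For H2-Ab1 the values were 588, 293 and 2463 and 229, 208 and 313 (log2 change -1.61 ± 0.58 SE, adjusted p = 0.046), where the groups also overlapped and the call was lost without day 0 replicate 1 (adjusted p = 0.067), without day 0 replicate 3 (adjusted p = 0.19), without mTO-iTreg replicate 1 (adjusted p = 0.1), without mTO-iTreg replicate 2 (adjusted p = 0.12), without mTO-iTreg replicate 3 (adjusted p = 0.071) or without TGFb-iTreg replicate 2 (adjusted p = 0.054). Cd74, the invariant chain, was not called, at 184, 121 and 869 on day 0 and at 194, 150.1 and 122 in mTO-iTreg (adjusted p = 0.26). Cd74 also stands on the list of B cell markers and made up most of the day 0 sums of that list. The list is thus not separate from the class II genes. In the main fit the paired chains H2-Aa and H2-Ab1 were thus lower and H2-Eb1 and the editing chains higher. The calls of H2-Ab1 and H2-Eb1 did not hold when single libraries were left out. The fall of H2-Aa was smaller without day 0 replicate 3. H2 genes are close copies, so that reads may have been shared between them. The 5 rises of MHC class II presentation became 3 without day 0 replicate 1, without day 0 replicate 2, without mTO-iTreg replicate 1 or without mTO-iTreg replicate 2.

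**Figure D4:**
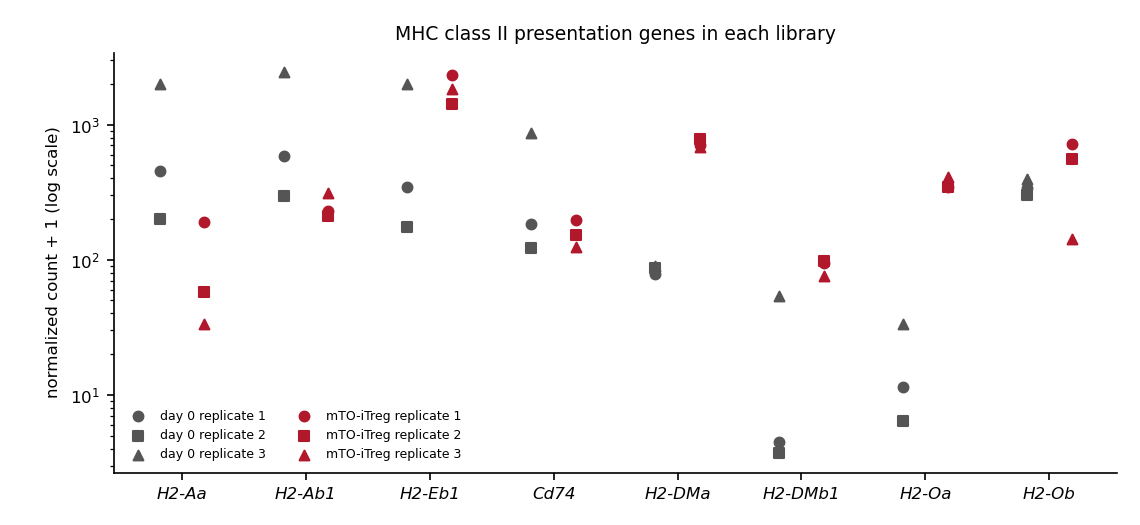
Normalized count plus 1 of 8 class II presentation genes on a log axis, in the 3 day 0 libraries (grey) and the 3 mTO-iTreg libraries (red), with a symbol for each replicate number. Day 0 replicate 3 (grey triangles) was the highest day 0 library for all 8 genes, and H2-DMa and H2-Oa were higher in all mTO-iTreg libraries than in any day 0 library.

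Of MHC class I presentation genes 6 rose and 4 fell of 20. The peptide transporter gene Tap1 went from 511, 591 and 441 to 1609, 1293 and 1881 (log2 change 1.62 ± 0.18 SE, adjusted p = 2.1e-05), and Tapbp (0.78), which loads class I, and the immunoproteasome genes Psmb8 (0.77) and Psme1 (0.55) rose. H2-T23 (-1.37), which encodes Qa-1, and Erap1 (-1.09), a trimming peptidase, fell. Antiviral interferon-inducible genes counted 42 tested, 8 higher, 6 lower, near the shares over all genes. Stat2 (1.34), Bst2 (1.31) and Ifi27l1 (1.62) rose, and Ifi203 (-1.46) and Parp14 (-1.37) fell. The Schlafen family, which restricts growth and viruses, had 4 of 5 tested members lower and none higher. Slfn1 went from 3793, 3408 and 3162 to 661, 1563 and 943 (log2 change -1.80 ± 0.23 SE, adjusted p = 7e-05), Slfn5 fell by 1.82 and Slfn2, which keeps T cells quiescent, by 0.98. The interferon-γ-inducible GTPases differed by gene: of guanylate-binding proteins 1 rose and 2 fell of 9 and of immunity-related GTPases 2 rose and 1 fell of 7. Igtp went from 774, 831 and 981 to 2668, 2663 and 3156 (log2 change 1.72 ± 0.16 SE, adjusted p = 4.4e-06) and Irgm2 rose by 0.94, while Gbp2 fell from 965, 868 and 1420.0 to 358, 391 and 452 (log2 change -1.41 ± 0.20 SE, adjusted p = 0.00012). Of GIMAP GTPases, which support lymphocyte survival, 2 rose and 2 fell of 8, led by Gimap7 (1.69) and Gimap8 (-1.01). Rab GTPases counted 38 tested, 6 higher, 3 lower, with Rab9 (1.43) and Rab11b (-0.85) as examples of each direction. The 6 rises of MHC class I presentation became 3 with no variance trend. The 8 rises of antiviral interferon-inducible genes became 5 without day 0 replicate 2, without day 0 replicate 3 or without mTO-iTreg replicate 2, 4 without mTO-iTreg replicate 3 or with no variance trend and 13 with equal totals. The 6 falls of antiviral interferon-inducible genes became 3 without day 0 replicate 1 or without day 0 replicate 2. The 3 falls of small GTPase Rab family became 1 without day 0 replicate 1, without day 0 replicate 3, without mTO-iTreg replicate 2, with equal totals or in a fit of 2 groups and 5 with TMM scaling or with quantile normalization.

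More splicing factor genes fell than rose. SR proteins and hnRNPs bind pre-mRNA and set which exons are used. Of these 3 of 42 tested members rose and 24 fell (7.14% and 57.1%), median -0.53. Srsf6 was at 1153, 1180.1 and 1125 on day 0 and at 276, 423 and 257 in mTO-iTreg (log2 change -1.89 ± 0.17 SE, adjusted p = 3.5e-06), with TGFb-iTreg at 1333, 1280.4 and 1222. Srsf2 went from 5532, 6317 and 6402 to 1365, 2645 and 1872 (log2 change -1.68 ± 0.18 SE, adjusted p = 1.4e-05), and Hnrnpa2b1 from 3174, 3263 and 3414 to 1078, 1112 and 881 (log2 change -1.69 ± 0.12 SE, adjusted p = 5e-07). In the 3 genes all mTO-iTreg libraries lay below all day 0 libraries. The RNA helicase gene Ddx5 (-1.42), Srsf7 (-1.27) and Hnrnpf (-1.24) fell with them. The main exception was Hnrnpc, which rose from 3025, 3132 and 2911 to 7067, 5725 and 7631 (log2 change 1.16 ± 0.12 SE, adjusted p = 1.4e-05). Of CCCH RNA-decay and related factors 2 rose and 7 fell of 23. The 3 tested genes of the Zfp36 family, whose proteins shorten the life of AU-rich mRNAs, all fell: Zfp36 from 1997, 2790.2 and 3144 to 402, 307 and 327 (log2 change -2.92 ± 0.32 SE, adjusted p = 1.5e-05), Zfp36l1 by 2.42 and Zfp36l2 by 1.79. The 3 rises of SR proteins and hnRNPs became 1 without mTO-iTreg replicate 3.

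Of long noncoding and snoRNA-host RNAs 8 rose and 6 fell of 27. Hosts of small nucleolar RNAs rose: Gas5 from 2695, 2927 and 3311 to 10506, 8236 and 10805 (log2 change 1.72 ± 0.12 SE, adjusted p = 5.6e-07), Snhg12 from 212, 228 and 267 to 1140.4, 1080.0 and 1270.1 (log2 change 2.30 ± 0.17 SE, adjusted p = 6.8e-07), Snhg5 by 1.85 and Snhg6 by 1.78. Not all hosts did so, as Snhg4 (-1.39) and Snhg8 (-0.74) fell. Kcnq1ot1, an imprinted antisense RNA, went from 25699, 20265 and 4682 to 2024, 3535 and 1193 (log2 change -2.72 ± 0.54 SE, adjusted p = 0.0016), and the imprinted Peg13 from 68.4, 78.0 and 60.1 to 8.87, 8.06 and 5.98 (log2 change -3.02 ± 0.62 SE, adjusted p = 0.0021). Tug1 fell by 1.41. Nucleolar and ribosome biogenesis genes counted 48 tested, 2 higher, 12 lower, median -0.31. Nop10, a part of the pseudouridylation complex, went from 1072, 1382 and 1347 to 269, 614 and 440.4 (log2 change -1.59 ± 0.23 SE, adjusted p = 0.00016), and Rrs1 (-1.64), Grwd1 (-1.92), Noc3l (-1.64) and Utp20 (-1.58), all needed to build ribosomal subunits, fell. The groups did not overlap in any of these 5. The 2 rises of nucleolar and ribosome biogenesis genes became 0 without day 0 replicate 3 or without mTO-iTreg replicate 3, 6 with equal totals and 5 with scaling without mitochondrial genes and Rn45s.

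Aminoacyl-tRNA synthetases charge tRNAs with their amino acids, with separate sets in the cytosol and in mitochondria. The cytosolic set rose: 15 of 23 tested members rose and 0 fell (65.2%), median 0.83. The mitochondrial set did not share the pattern in its counts, with 17 tested, 2 higher, 0 lower, median -0.18 (0.04 with equal totals). The difference between the sets was not tested. Vars, for valine, went from 84.2, 159 and 132 to 624, 600.5 and 876 (log2 change 2.504 ± 0.24 SE, adjusted p = 5.2e-06), and Cars, for cysteine, from 98.2, 86.0 and 65.4 to 289, 415 and 362 (log2 change 2.08 ± 0.25 SE, adjusted p = 3.8e-05). Aars, for alanine, went from 212, 255 and 209 to 620.0, 949.7 and 696 (log2 change 1.72 ± 0.18 SE, adjusted p = 1.3e-05). TGFb-iTreg stood between the groups for Vars, at 319.7, 337 and 278. Gars (0.84), Tars (0.79), Mars (1.61) and Wars (1.46) rose too. The pattern TGATGNAAN, a form of the element to which ATF4 and C/EBP proteins bind, was searched on both strands in the same 250 bases before each start. It was present in 3 of 15 cytosolic synthetase genes with a promoter sequence and in 0 of 14 mitochondrial ones, against 3.89% of all genes and 2.43% of tested genes. The 3 genes all rose and are shown in the same way, with the match (here on the opposite strand) in capitals.
Aars, chr8:111033704-111033762, + strand, 113 bases before the start: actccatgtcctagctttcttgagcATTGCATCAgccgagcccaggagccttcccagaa
Gars, chr6:55037945-55038000, + strand, 31 bases before the start: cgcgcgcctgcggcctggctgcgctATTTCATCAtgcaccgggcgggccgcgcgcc
Tars, chr15:11399659-11399699, - strand, 16 bases before the start: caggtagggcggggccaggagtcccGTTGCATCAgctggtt

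Ribosomal protein genes moved both ways. Of cytosolic ribosomal proteins 22 rose and 23 fell of 81, median -0.08, a sign that turned with equal totals (0.14) and quantile normalization (0.21). Rpsa went from 70172, 78429.6 and 65575 to 36173, 24342 and 31149 (log2 change -1.24 ± 0.15 SE, adjusted p = 2.9e-05). Rpl29 (1.10) and Rps27l (1.43), a p53-inducible paralogue of Rps27, rose, and Rps25 (-1.07), Rps29 (-0.92) and Rps3a1 (-0.87) fell. Reads of these genes can fall on their many pseudogenes, so single values are uncertain. Of mitochondrial ribosomal proteins 13 rose and 6 fell of 76, with Mrpl45 (1.60) and Mrpl34 (1.31) higher and Mrps28 (-1.76) lower. Translation initiation and elongation factors counted 63 tested, 18 higher, 11 lower. Eif4ebp1, the brake on cap-dependent translation, went from 15.8, 64.5 and 32.7 to 569.5, 781 and 767 (log2 change 4.39 ± 0.39 SE, adjusted p = 2.6e-06). Eif2s2, a subunit of eIF2, went from 1065, 1177 and 836 to 2815, 3686 and 3565 (log2 change 1.71 ± 0.16 SE, adjusted p = 5.2e-06), and Eif4e2, which encodes a cap-binding repressor, rose by 2.32. In the 3 genes the groups did not overlap. Eif4g2 (-1.30), Eif1b (-1.74) and Eif5 (-0.97) fell. The 22 rises of cytosolic ribosomal proteins became 34 with equal totals and 36 with quantile normalization. The 23 falls of cytosolic ribosomal proteins became 14 with quantile normalization. The 13 rises of mitochondrial ribosomal proteins became 23 with equal totals. The 6 falls of mitochondrial ribosomal proteins became 3 without mTO-iTreg replicate 1 or with scaling without mitochondrial genes and Rn45s and 2 with equal totals. The 11 falls of translation initiation and elongation factors became 7 with equal totals.

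Protein folding and disposal genes had mixed changes. Of heat shock proteins and J-domain co-chaperones 7 rose and 12 fell of 69 (10.1% and 17.4%, beside 20.0% and 15.1% over all genes). Besides Hspa1a and Hspa1b, which are near-identical copies and whose reads cannot be assigned with certainty, Hsph1, a nucleotide exchange factor of HSP70, went from 805, 2043 and 579 to 132, 171 and 119 (log2 change -2.82 ± 0.35 SE, adjusted p = 4.4e-05) and Dnajb1 from 847, 1347 and 729 to 204, 245 and 275 (log2 change -1.97 ± 0.23 SE, adjusted p = 2.5e-05). Hspb6, a small heat shock protein gene, went the other way, from 14.04, 34.9 and 8.44 to 251, 140.2 and 141 (log2 change 3.32 ± 0.52 SE, adjusted p = 0.0003). ER chaperones and unfolded protein response genes counted 33 tested, 7 higher, 6 lower (21.2% and 18.2%), near the shares over all genes. Xbp1, a factor of the unfolded protein response, was at 296, 301 and 337 on day 0 and at 1245, 1424 and 1627 in mTO-iTreg (log2 change 2.19 ± 0.21 SE, adjusted p = 5.2e-06), and Ddit3 (CHOP, 2.12) and Sel1l (1.18), an adaptor for degradation, rose. Derl3 was at 0 on day 0 and at 22.5, 16.7 and 50.5 in mTO-iTreg, at least 18.8-fold higher. Ppp1r15a (-1.77), which restores translation, and Pdia4 (-1.24) fell. Proteasome subunits counted 46 tested, 13 higher, 4 lower, with Psmb7 (1.12) and Psma4 (0.92) among the rises. Of the T-complex chaperonin and prefoldin, which fold actin and tubulin, 5 rose and 2 fell of 14, with Cct7 (0.50) higher and Cct8 (-1.49) lower. Autophagy genes counted 30 tested, 9 higher, 5 lower, with Gabarapl1 (4.36), Ulk1 (1.79) and Map1lc3a (2.41) higher and Ulk2 (-1.13) lower. The 7 rises of heat shock proteins and J-domain co-chaperones became 4 without mTO-iTreg replicate 1 and 12 with equal totals. The 6 falls of ER chaperones and unfolded protein response became 3 without mTO-iTreg replicate 1, without mTO-iTreg replicate 3, with equal totals or with no variance trend. The 13 rises of proteasome subunits became 7 without mTO-iTreg replicate 3 and 5 with no variance trend. The 4 falls of proteasome subunits became 1 without day 0 replicate 2, with equal totals, with scaling without mitochondrial genes and Rn45s or with no variance trend and 2 without day 0 replicate 3, without mTO-iTreg replicate 1, without TGFb-iTreg replicate 3 or in a fit of 2 groups. The 5 rises of T-complex chaperonin and prefoldin became 3 without day 0 replicate 1 or with no variance trend. The 5 falls of autophagy genes became 3 without day 0 replicate 3 or with no variance trend and 2 without mTO-iTreg replicate 3, with equal totals or with scaling without mitochondrial genes and Rn45s.

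Of the RNAs encoded by mitochondrial DNA, most mRNAs fell, and both rRNAs and most tRNAs rose. Mitochondrial DNA is read as long transcripts from both strands that are cut into mRNAs, rRNAs and tRNAs. Of 13 mRNAs, 1 rose and 12 fell, median -2.42, and their summed share was 16.5%, 16.8% and 15.9% of the normalized counts on day 0, 4.76%, 5.32% and 5.37% in mTO-iTreg, and 10.1%, 8.72% and 10.3% in TGFb-iTreg. mtCytb, for cytochrome b, went from 167163, 181869 and 145830.0 to 12334, 16398 and 13018 (log2 change -3.57 ± 0.13 SE, adjusted p = 1.3e-09), and mtCo3, for a subunit of cytochrome oxidase, from 47398, 48498 and 47609 to 5825, 6736 and 7039.9 (log2 change -2.88 ± 0.10 SE, adjusted p = 9.7e-10). The only mRNA from the light strand, mtNd6, went up, from 64.9, 110.2 and 64.4 to 344, 380.3 and 276 (log2 change 2.08 ± 0.34 SE, adjusted p = 0.0004). Both rRNAs passed the test, and their summed share was 3.14%, 2.08% and 1.45% on day 0 and 7.48%, 6.81% and 7.06% in mTO-iTreg. mt-Rnr2 went from 142316, 102598 and 67761 to 311620.0, 289133 and 309945 (log2 change 1.61 ± 0.21 SE, adjusted p = 7.4e-05) and mt-Rnr1 from 46782, 24461 and 13571 to 73375, 47610.0 and 49459 (log2 change 1.16 ± 0.35 SE, adjusted p = 0.019). The call of mt-Rnr1 was lost without day 0 replicate 3 (adjusted p = 0.077) or without mTO-iTreg replicate 1 (adjusted p = 0.08). Of 16 tested tRNAs, 11 rose and 1 fell. mt-Ts2 was at 0 in all day 0 libraries and at 553, 715 and 465 in mTO-iTreg, at least 364-fold higher. mt-Tv was at 0, 10.8 and 0 on day 0, at 508, 713 and 634 in mTO-iTreg (log2 change 8.08 ± 0.91 SE, adjusted p = 2.1e-05) and at 0, 2.71 and 2.96 in TGFb-iTreg. These tRNA genes lie end to end with mRNAs and rRNAs, so their reads cannot be told apart from those of uncut or overlapping transcripts. CEL-Seq starts from poly(A) tails, so counts of rRNA and tRNA depend on tails or on priming within them.

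**Figure D5:**
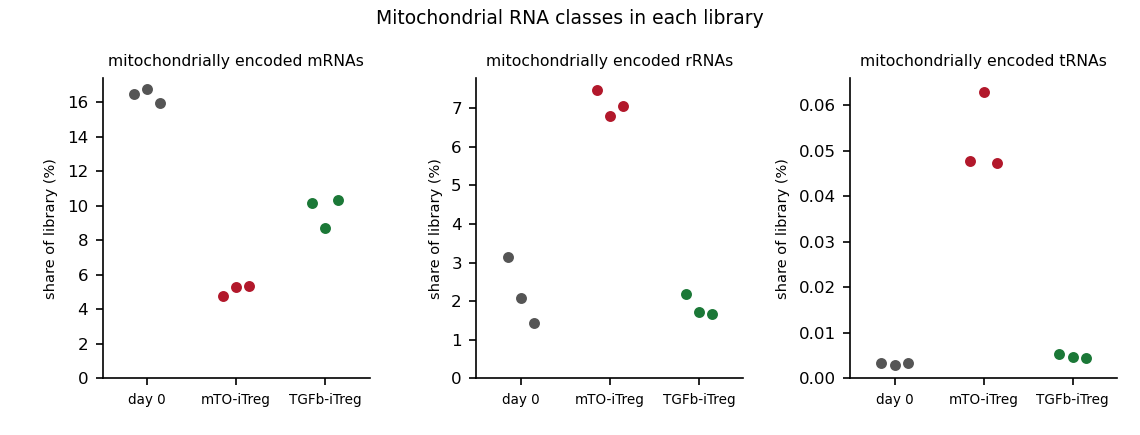
Share of normalized counts (%) taken by mitochondrially encoded mRNAs, rRNAs and tRNAs in each library, on linear axes from 0 that differ between panels. mRNAs stood at 15.9% to 16.8% on day 0 and 4.76% to 5.37% in mTO-iTreg, while the shares of rRNAs and tRNAs were higher in mTO-iTreg than in either other group.

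Among nuclear genes for the respiratory chain, more rose than fell. Of nuclear-encoded respiratory chain subunits 33 of 88 tested members rose and 8 fell (37.5% and 9.09%), median 0.14. Cox6b2, a subunit form known from testis, went from 0, 10.8 and 0 to 347, 73.8 and 219 (log2 change 6.30 ± 0.97 SE, adjusted p = 0.00026), and Cox6a2, a form known from muscle, from 0, 0 and 34.8 to 53.9, 133 and 149 (log2 change 4.97 ± 1.18 SE, adjusted p = 0.0051). Cox7c went from 198, 124 and 151 to 499, 449 and 519 (log2 change 1.65 ± 0.22 SE, adjusted p = 9.1e-05). The 3 genes rose without overlap between the groups. Ndufaf3 (1.499) and Ndufv3 (1.38), of complex I, rose, and Atp5h (-0.95), Atp5a1 (-0.70) and Cox4i1 (-0.59) fell. TCA cycle enzymes counted 28 tested, 9 higher, 4 lower, with the aminotransferase genes Got2 (1.81) and Got1 (0.98) higher, and Pdha1 (-0.98), of pyruvate dehydrogenase, Idh3a (-1.005) and Me2 (-0.79) lower. The 8 falls of nuclear-encoded respiratory chain subunits became 13 with TMM scaling and 5 with equal totals.

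Genes that supply amino acids were mostly higher. Of serine, glycine, proline and one-carbon enzymes 14 of 24 tested members rose and 3 fell (58.3%), median 1.03. Phgdh, the first enzyme of serine synthesis, went from 33.3, 45.7 and 60.1 to 277, 335 and 274 (log2 change 2.68 ± 0.29 SE, adjusted p = 1.4e-05). Odc1, the first enzyme of polyamine synthesis, went from 105, 148 and 184 to 888, 831 and 623 (log2 change 2.44 ± 0.22 SE, adjusted p = 2.8e-06). Bcat1, which acts on branched-chain amino acids, rose by 2.64, and Mat2a (-1.20) and Mat2b (-0.84), which make the methyl donor, fell. Of amino acid and oligopeptide transporters 12 of 21 tested members rose and 2 fell (57.1%), median 0.75. Slc3a2, the shared heavy chain of several carriers, went from 404, 508 and 468 to 1897, 2605 and 1689 (log2 change 2.14 ± 0.17 SE, adjusted p = 1.2e-06), and Slc36a1, a lysosomal carrier, from 89.5, 88.7 and 109.7 to 27.3, 29.2 and 20.6 (log2 change -1.87 ± 0.43 SE, adjusted p = 0.0041). Slc6a9, the glycine carrier, was at 0, 0 and 5.27 on day 0 and at 102, 136 and 85.0 in mTO-iTreg, on 5 day 0 counts. Nucleotide synthesis enzymes counted 28 tested, 9 higher, 5 lower, with Tk1 (3.48), Rrm2 (2.35) and Uck2 (1.97) higher and Nme1 (-0.86) and Nme2 (-1.22) lower.

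Of sterol and fatty acid metabolism 18 of 44 tested members rose and 4 fell (40.9% and 9.09%), median 0.56. Scd2, a desaturase that makes monounsaturated fatty acids, was at 182, 126 and 220.5 on day 0 and 1848, 2027 and 2789 in mTO-iTreg (log2 change 3.66 ± 0.27 SE, adjusted p = 6.8e-07), and Scd1 at 7.02, 8.06 and 27.4 and 121, 187 and 298 (log2 change 3.90 ± 0.53 SE, adjusted p = 9.4e-05). Fdps, of the mevalonate pathway, went from 154, 86.0 and 169 to 684, 798 and 901 (log2 change 2.58 ± 0.24 SE, adjusted p = 4.6e-06). In the 3 genes the groups did not overlap. Pmvk (2.65), Elovl6 (2.51) and Insig1 (1.94), a sterol-regulated brake, rose, and Abcg1 (-1.32), the cholesterol exporter, and Hadhb (-0.90), of fatty acid oxidation, fell. Glutathione, thioredoxin and NRF2-linked genes counted 36 tested, 13 higher, 4 lower. Gpx4, which removes lipid peroxides, went from 821, 688 and 754 to 2009, 1802 and 1989 (log2 change 1.36 ± 0.13 SE, adjusted p = 5.5e-06), and Gpx1 went the other way, from 2644, 3785 and 3104 to 1511, 1173 and 1119 (log2 change -1.32 ± 0.15 SE, adjusted p = 2.4e-05). Gsto1 (2.70) and Gss (3.62) rose, and Gclc (-1.35), Gsr (-1.78) and Cat (-1.02) fell. Of iron and haem handling 6 rose and 4 fell of 23. The haem synthesis gene Alad (from 15.8, 40.3 and 28.5 to 167, 78.8 and 118, log2 change 2.10 ± 0.43 SE, adjusted p = 0.0021) rose, Uros (-2.34), a further step of that pathway, fell, and the ferritin chains divided, with Ftl1 at 0.86 and Fth1 at -0.72. Of zinc transporters and metallothioneins 4 rose and 0 fell of 21, with Slc39a4 (2.84) and Slc39a1 (1.401) among the rises. The 4 falls of sterol and fatty acid metabolism became 2 with equal totals. The 4 falls of iron and haem handling became 2 without day 0 replicate 3, without mTO-iTreg replicate 3, without TGFb-iTreg replicate 3, with equal totals, with scaling without mitochondrial genes and Rn45s or in a fit of 2 groups. The 4 rises of zinc transporters and metallothioneins became 7 with equal totals. The 0 falls of zinc transporters and metallothioneins became 2 without mTO-iTreg replicate 3 or with limma-voom on recovered counts and 4 with quantile normalization.

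Many genes of the actin cytoskeleton fell, and several tubulin genes rose. Of actins, actin-binding proteins and myosins 8 of 61 tested members rose and 25 fell (13.1% and 41.0%), median -0.42. Flna, a crosslinker of actin, was at 1474, 1812 and 1529 on day 0, 179, 242 and 226 in mTO-iTreg (log2 change -2.90 ± 0.15 SE, adjusted p = 3.6e-08) and 561, 612 and 598 in TGFb-iTreg. Tmsb10, which holds actin monomers, went from 41424, 38353 and 36513 to 9202, 9636 and 11260.0 (log2 change -1.95 ± 0.11 SE, adjusted p = 5.6e-08), and Msn, a linker of actin to the membrane, from 4867, 4179.9 and 5074 to 1333, 1293 and 1486 (log2 change -1.78 ± 0.11 SE, adjusted p = 1.9e-07). In these 3 genes the groups did not overlap. Myo1e (4.85), Myo1c (2.37) and Capg (1.44) rose. Of tubulins and stathmin 10 of 24 tested members rose and 3 fell, median 0.61. Tubb5 went from 4623, 5220.2 and 4473 to 12256, 9839 and 12293 (log2 change 1.26 ± 0.15 SE, adjusted p = 2.6e-05), Tubb6 (4.81) and Stmn1 (1.47) rose, and Tuba1a (-2.04) and Tuba4a (-1.17) fell, with the limit that tubulin genes are close copies.

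Of glycosyltransferases of selectin ligands and sialic acids 6 rose and 10 fell of 29. Among genes that add or modify sialic acid, St8sia6 went from 482, 465 and 634 to 91.4, 115 and 49.2 (log2 change -2.68 ± 0.35 SE, adjusted p = 6.7e-05) and St6gal1 from 814, 836 and 1215 to 419, 336 and 347 (log2 change -1.36 ± 0.19 SE, adjusted p = 0.00014). St8sia4 (-1.31), St8sia1 (-1.29) and Cmah (-1.29) also fell, and St3gal2 (2.42), St6galnac4 (1.80) and the sulfotransferase gene Chst11 (4.07) rose. Of E3 ligases and deubiquitinases of T cells 4 rose and 7 fell of 29. Dtx1, a target of Notch linked to anergy, went from 502, 395 and 327 to 25.2, 75.7 and 42.5 (log2 change -3.18 ± 0.83 SE, adjusted p = 0.0094), Itch (-1.02) fell and Ndfip1 (1.70), which activates Itch, rose. Of alpha-arrestins and quiescence-linked genes 6 rose and 16 fell of 31, a list that holds several genes named above. Dapl1 went from 1816, 1914 and 1677 to 304, 353 and 217 (log2 change -2.65 ± 0.34 SE, adjusted p = 5.3e-05), and Kbtbd11 (-1.97) and Ms4a4b (-2.01) fell. The alpha-arrestin genes Txnip (1.06) and Arrdc4 rose, the latter from 7.02, 0 and 1.05 to 358, 269 and 538 (log2 change 7.20 ± 0.73 SE, adjusted p = 9.1e-06). The 4 rises of E3 ligases and deubiquitinases of T cells became 2 without mTO-iTreg replicate 3 or with no variance trend.

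Histones and HMG proteins counted 38 tested, 11 higher, 7 lower. The linker histone gene H1f0 went from 89.5, 94.1 and 80.2 to 494, 237 and 383 (log2 change 2.01 ± 0.26 SE, adjusted p = 6.3e-05) and H2afy, for macroH2A, from 2688, 2075 and 2885 to 5389.5, 5313 and 6313 (log2 change 1.16 ± 0.13 SE, adjusted p = 2.1e-05). Hmgb1 (-0.95), Hmgn1 (-1.19), Hmgn2 (-1.03) and H3f3a (-1.004), for histone H3.3, fell. DNA methylation and Polycomb enzymes counted 34 tested, 3 higher, 5 lower, with Ezh2 (from 119, 99.5 and 129.8 to 329, 249 and 327, log2 change 1.37 ± 0.22 SE, adjusted p = 0.00036), the methyltransferase of PRC2, and Cbx2 (2.15) higher and Suz12 (-0.73), also of PRC2, lower. Of histone lysine methyltransferases and demethylases 9 rose and 3 fell of 44, with Smyd2 (2.43), Smyd5 (1.57) and Kdm2b (1.19) higher and Suv420h1 (-1.89) lower. HDACs, sirtuins and acetyltransferases counted 29 tested, 3 higher, 5 lower. Sirt1, a deacetylase that also acts on p53, went from 314, 433 and 338 to 94.8, 88.1 and 159 (log2 change -1.69 ± 0.24 SE, adjusted p = 0.00015), and Ep300 (-1.52) and Kat2b (-1.05), both acetyltransferase genes, fell. The 11 rises of histones and HMG proteins became 7 without mTO-iTreg replicate 1, with a filter at 20 or with limma-voom on recovered counts. The 3 rises of DNA methylation and Polycomb enzymes became 5 with equal totals. The 5 falls of DNA methylation and Polycomb enzymes became 3 without day 0 replicate 1 or without mTO-iTreg replicate 3 and 1 with equal totals. The 3 falls of histone lysine methyltransferases and demethylases became 6 with quantile normalization. The 5 falls of HDACs, sirtuins and acetyltransferases became 3 without mTO-iTreg replicate 1, without mTO-iTreg replicate 3, with equal totals or in a fit of 2 groups.

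Single genes outside the families were among the largest changes. Tgm2, a crosslinking enzyme, was at 0, 0 and 10.5 on day 0, 314, 426 and 394 in mTO-iTreg (log2 change 7.38 ± 0.91 SE, adjusted p = 4.2e-05) and 0, 1.36 and 0 in TGFb-iTreg. Tg, which encodes thyroglobulin, was at 0, 0 and 8.44 on day 0, 343, 212 and 587 in mTO-iTreg and 32.0, 26.4 and 15.8 in TGFb-iTreg. Espn, an actin bundler of sensory hairs, was at 1.75, 0 and 0, then 243, 306 and 294 and then 12.3, 10.9 and 12.8 in the same order, on 1 day 0 count. Each of the 3 was higher in all mTO-iTreg libraries than in the other 6. Adssl1, of AMP synthesis, was at 0 on day 0 and at 301, 127 and 187 in mTO-iTreg, at least 129-fold higher, and Fbln2, a matrix protein gene, was at least 96.1-fold higher. Ska1, for attachment of chromosomes to the spindle, had a log2 change of 7.16 on 1 day 0 count. Among the falls, Cnga1, a cation channel gene, went from 98.2, 88.7 and 124 to 0, 5.58 and 3.99 (log2 change -5.02 ± 0.74 SE, adjusted p = 0.00018). Vipr1, the receptor for vasoactive intestinal peptide, went from 158, 188 and 153 to 19.8, 12.4 and 1.99 (log2 change -4.15 ± 0.59 SE, adjusted p = 0.00014), and Slc16a5, a carrier of the monocarboxylate family, from 204, 151 and 165 to 0.682, 24.2 and 3.32 (log2 change -4.92 ± 0.95 SE, adjusted p = 0.0013). Lipi (-4.26), Mid1 (-4.14) and Sytl2 (-4.05) also fell. Fcer1g, a signalling chain of myeloid and NK cells, went from 57.9, 61.8 and 230.0 to 8.87, 0 and 0 (log2 change -5.47 ± 1.09 SE, adjusted p = 0.0016), and it is also on the list of myeloid markers.

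Against the other induced cells, 1634 of the 10571 genes were higher in mTO-iTreg than in TGFb-iTreg (15.5%) and 1233 were lower (11.7%), by the same fit. These genes had passed a filter on the mTO-iTreg and day 0 libraries alone, so genes read only in TGFb-iTreg are missing. The balance of higher and lower, also within families, may lean to higher for that reason. The same mTO-iTreg libraries enter both comparisons, so values are given side by side and not as support for each other. mTO-iTreg stood apart from both other groups in the form of its library codes as well as in culture. Xist was at 0, 2.71 and 70.6 in TGFb-iTreg and at 314, 398 and 401 in mTO-iTreg (log2 change 5.85 against TGFb-iTreg, adjusted p = 0.019), and its part in this comparison was not tested. Of the p53 target genes 23 were higher and 4 lower, and of cytosolic aminoacyl-tRNA synthetases 11 were higher and 1 lower. Of SR proteins and hnRNPs 4 were higher and 19 lower, of actins and their partners 3 were higher and 18 lower, and of T cell receptor signalling genes 9 were higher and 10 lower. Of TNF superfamily receptors 8 were higher and 2 lower, of class II genes 7 were higher and 0 lower and of mitochondrially encoded mRNAs 2 were higher and 8 lower. Gzmb was at 4226, 5467 and 5687 in mTO-iTreg and at 762, 276 and 654 in TGFb-iTreg (log2 change 3.30 against TGFb-iTreg, adjusted p = 3.4e-05). Serpinb6b (log2 change 3.84 against TGFb-iTreg, adjusted p = 1.7e-08), Eomes (log2 change 4.15 against TGFb-iTreg, adjusted p = 9.5e-05), H2-Oa (log2 change 3.74 against TGFb-iTreg, adjusted p = 0.00026) and Polk (log2 change 3.14 against TGFb-iTreg, adjusted p = 0.00014) were also higher, and Srsf6 (log2 change -2.04 against TGFb-iTreg, adjusted p = 3.8e-06), Flna (log2 change -1.46 against TGFb-iTreg, adjusted p = 2e-05) and Il6ra (log2 change -2.00 against TGFb-iTreg, adjusted p = 0.00013) lower. Scd2 was at 1848, 2027 and 2789 in mTO-iTreg and at 275, 285 and 540.5 in TGFb-iTreg (log2 change 2.64 against TGFb-iTreg, adjusted p = 1.6e-05), and Klf2 at 889, 934 and 629 and 3131, 3177 and 3553 (log2 change -2.03 against TGFb-iTreg, adjusted p = 3.2e-06). For Fos, at 231, 269 and 89.0 and 61.5, 80.7 and 446, the difference did not pass the test (log2 change 0.43 against TGFb-iTreg, adjusted p = 0.62).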

How the data were processed

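CEL-Seq libraries of 9 sorted CD4+ T cell samples, 3 per group, were measured. Per the submitters' processing notes the reads were handled with BWA and DESeq2 on mm10, with versions, annotation and strand handling not given in the sources used here. A single table of size-factor-normalized counts was deposited by the authors (a unit of its own, written with decimal commas). In each library 100% of values were whole multiples of what 1 read is worth, within 0.1, and whole counts were recovered from these steps for depth, floors and 2 alternatives. No sequencing date or batch is given in the labels.

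Genes at 5 or more in at least 3 of the 6 mTO-iTreg and day 0 libraries were tested. limma 3.58.1 in R 4.3.3 was fitted with a mean-variance trend to log2(normalized count + 1) for the 3 groups, with Benjamini-Hochberg adjustment at 0.05 over all tested genes. Tables and figures were made in Python 3.11.15 with numpy 2.4.6, pandas 2.3.3 and matplotlib 3.10.9. A fold against a group at 0 was set against a floor of 3 counts over that group and covers counting error only.

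The genes were grouped in 81 families, and the members and lists were chosen with earlier results of these data known, the lists of mitochondrial rRNAs and tRNAs after the table was seen. Named genes were, per family and direction, up to 6 called genes whose groups did not overlap with a mean of at least 20, the 15 largest changes in each direction with a mean of at least 100, and a family's defining members whatever their result. Promoters and gene starts are from RefSeq and the annotation given with the files. Deviations of libraries with the same replicate number correlated little across genes, and the number was used as a block in an alternative fit only. The fit was tested on simulated data. The alternatives changed the pseudocount, filter, scaling, groups, variance trend, threshold and libraries, and added limma-voom and thinned counts. A few genes and 1 family are not reported here.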

Additional observations from a re-analysis of the deposited data

How the results depend on the processing

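The 2119 rises and 1598 falls against day 0 were 2068 and 1566 with a pseudocount of 0.5 and 2226 and 1650 with 5. They were 2078 and 1578 without a filter and 1903 and 1543 with a filter at 20. With TMM scaling 1950 rose and 1781 fell, with equal totals 2722 and 1148, with quantile normalization 1900 and 2010, and with scaling without mitochondrial genes and Rn45s 2427 and 1326. In a fit of 2 groups there were 2001 and 1472, and without a variance trend 1902 and 1393. With a log2 change of at least 1 also required, 1569 rose and 1011 fell against day 0, and for mTO-iTreg against TGFb-iTreg 1166 were higher and 678 lower. Limma-voom on recovered counts gave 1796 and 1630, and counts thinned to the smallest library gave 1922 and 1482, both chosen after seeing the data. Leaving out 1 library at a time gave 1675 to 2141 rises and 1322 to 1608 falls against day 0, and 1151 to 1803 genes higher for mTO-iTreg against TGFb-iTreg. For mTO-iTreg against TGFb-iTreg, genes lower numbered 928 to 1297. The planned edgeR test on recovered reads was not run.

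With the replicate block, 2074 rose and 1579 fell, and for mTO-iTreg against TGFb-iTreg 1580 were higher and 1208 lower. Deviations from the group means correlated at -0.0165, 0.0134 and 0.0119 between the day 0 and mTO-iTreg libraries numbered 1, 2 and 3, at 0.0412, -0.0216 and 0.0473 between day 0 and TGFb-iTreg and at -0.0421, -0.00965 and -0.00183 between mTO-iTreg and TGFb-iTreg. No pair was over 0.1, and the labels say nothing of a shared source. Correlations of so few libraries cannot settle whether those with the same number share a source. Xist was highest in replicate 3 both on day 0 (212) and in TGFb-iTreg (70.6). A pairing is thus neither shown nor excluded.

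Of 362 named genes called against day 0, 309 stayed called in each of the 23 settings that tested them, and none changed direction. Over the settings other than left-out libraries, with the threshold on the log2 change among them, 309 stayed called too. Each named gene that lost its call without a library thus also lost it in another setting. Most of the 362 genes were named for large changes without overlap in these same data. Their stability follows in part from that choice and says little of other genes. Of 81 families, 21 had a median that changed sign under a scaling. Of 162 counts of rises or falls, 31 moved by over 1.5 times and more than 1 gene without a library, and 44 under another setting, the threshold on the log2 change aside. Cd74 and Tgfb1, not called, changed sign in some settings: Cd74 ranged from -1.384 to 0.033 over the libraries left out, above 0 without day 0 replicate 3, and Tgfb1 from -0.453 to 0.286, above 0 without day 0 replicate 1, mTO-iTreg replicate 1 or mTO-iTreg replicate 3. Tgfb1 was also at 0.137 with equal totals and at 0.042 with scaling without mitochondrial genes and Rn45s. The cause was not tested. A depth of 2267922 counts in day 0 replicate 2 limits the rarest genes.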
